A study of Camelina sativa with 12 samples.

Results

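In all, 6 rows of the root expression matrix of 49932 genes are described here across 12 libraries in 4 groups. They are the glycosyltransferase genes of camelina (*Camelina sativa*) that the study annotates as UGT74E2 (Csa14g007040 and Csa17g009070, ortholog AT1G05680), UGT74D1 (Csa05g029410, ortholog AT2G31750) and UGT73C7 (Csa04g039100, Csa06g027600 and Csa09g061430, ortholog AT3G53160). The study listed all 6 as up-regulated in *35S::acdS* roots relative to the control, so that comparison chose them and is given below as a description, with no test. The digits after Csa give the chromosome: the UGT74E2 genes lie on chromosomes 14 and 17, UGT74D1 on 5, and the UGT73C7 genes on 4, 6 and 9. Every gene passed the filter on low values, with at least 1 CPM in at least 3 libraries.

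UDP-glycosyltransferases move a sugar from a UDP-sugar onto a small molecule, and for a plant hormone the sugar conjugate is usually a storage or inactive form. In *Arabidopsis thaliana*, UGT74E2 acts on indole-3-butyric acid, a precursor of the auxin indole-3-acetic acid, and its gene is induced by hydrogen peroxide, while UGT74D1 glucosylates auxins. The study groups UGT73C7 with auxin conjugation, but its annotation names only a UDP-glucosyl transferase, and in *A. thaliana* this enzyme is known to glucosylate phenolic acids of the phenylpropanoid pathway, so that the annotation itself gives these 3 genes no hormone role.

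Roots were sampled from plants aged 28 days in 3 biological replicates per group, and every group had been exposed to 192 mM NaCl (15 dS/m) for 21 days. The *35S::acdS* line carries *acdS* of *Pseudomonas* sp. UW4, which encodes ACC deaminase, an enzyme that breaks down the ethylene precursor ACC, behind a double CaMV 35S promoter that is active in most tissues. The *rolD::acdS* line carries the same gene behind the root promoter *rolD* of *Agrobacterium rhizogenes*. Each transgenic group is 1 homozygous single-insert line, so the transgene and its insertion cannot be told apart. In the *P. migulae* 8R6 group, plants of the wild-type line DH55 grew in soil inoculated with this ACC deaminase-producing bacterium at sowing and again 1 week later. The control group was DH55, with magnesium sulfate solution in place of the bacterium, and DH55 is also the background of the transgenic lines.

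Expression is given as CPM, the reads of a gene scaled to the reads of its library, deposited as whole numbers. The summed values were 887898 to 947036 per library, and the number of reads behind them is unknown. Fold changes are differences of log2(CPM + 0.5) from limma with all 12 libraries in one fit over 48099 tested genes, and the added 0.5 makes the change of a low gene come out smaller. Calling a gene took a Benjamini-Hochberg adjusted p no higher than 0.05 and a log2 fold change above 0.8 in size. Group values are means ± SD with n = 3 libraries, and with 3 libraries a side the smallest p that an exact permutation test allows is 0.1. In bulk roots, fewer cells of a type and less RNA per cell cannot be told apart. As a sign of green tissue, the summed CPM of 4 chlorophyll-binding and related genes was 5, 10 and 20 in the *35S::acdS* libraries, 4, 6 and 7 in the *rolD::acdS* libraries, 3 in each *P. migulae* 8R6 library and 4 in each control library. Of these 4 genes, ELIP1 was at 0 in all *P. migulae* 8R6 and control libraries. The study listed each of these genes as up-regulated in a transgenic line, on the same libraries. That choice favoured a higher sum in the transgenic lines, so the sum is not an independent marker of green tissue. The sum was highest in *35S::acdS* replicate 3, where 5 of the 6 glycosyltransferase genes had their lowest *35S::acdS* value, and the part of green tissue in the results was not tested. The markers that would define root cell types are not annotated in the matrix and were not analysed here.

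The UGT74E2 genes were highest in *35S::acdS* roots and at similar, lower levels in *rolD::acdS* and *P. migulae* 8R6 roots. Csa14g007040 had CPM values of 119, 107 and 126 in the *35S::acdS* libraries, 74, 57 and 73 in the *rolD::acdS* libraries, 82, 57 and 60 in the *P. migulae* 8R6 libraries, and 53, 22 and 63 in the control libraries. Every *35S::acdS* library was above all 9 others, while the other 3 groups overlapped with each other. Its mean was 117 ± 9.61 CPM in *35S::acdS*, 68.0 ± 9.54 CPM in *rolD::acdS*, 66.3 ± 13.7 CPM in *P. migulae* 8R6 and 46.0 ± 21.4 CPM in the control.

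The second copy, Csa17g009070, had CPM values of 71, 68 and 62 in the *35S::acdS* libraries, 38, 31 and 38 in the *rolD::acdS* libraries, 43, 25 and 30 in the *P. migulae* 8R6 libraries, and 27, 9 and 32 in the control libraries. The picture was that of the first copy, with no *35S::acdS* library below 62 CPM and none of the other 9 above 43 CPM. In *35S::acdS* minus control, which chose the genes, the log2 fold change was 1.47 (SE 0.32) for Csa14g007040 and 1.72 (SE 0.38) for Csa17g009070. Control replicate 2 was the lowest of the 12 libraries for both copies, and without it these values were 1.01 and 1.17.

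The UGT74D1 gene was highest in *35S::acdS* roots too, and its means in the 3 other groups lay within 1 CPM of each other. Csa05g029410 had CPM values of 17, 15 and 14 in the *35S::acdS* libraries, 8, 7 and 11 in the *rolD::acdS* libraries, 6, 8 and 11 in the *P. migulae* 8R6 libraries, and 9, 7 and 7 in the control libraries. All *35S::acdS* libraries were above all others, by a margin of 3 CPM between the nearest values. The means were 15.3 ± 1.53 CPM in *35S::acdS*, 8.67 ± 2.08 CPM in *rolD::acdS*, 8.33 ± 2.52 CPM in *P. migulae* 8R6 and 7.67 ± 1.15 CPM in the control. Its log2 fold change of *35S::acdS* minus control was 0.96 (SE 0.22), the smallest of the 6 and the nearest to the limit of 0.8.

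The UGT73C7 genes were high in both transgenic lines. Csa06g027600 had CPM values of 98, 99 and 94 in the *35S::acdS* libraries, 71, 68 and 103 in the *rolD::acdS* libraries, 50, 36 and 58 in the *P. migulae* 8R6 libraries, and 49, 34 and 58 in the control libraries. Here the *rolD::acdS* libraries reached into the *35S::acdS* range and did not overlap with *P. migulae* 8R6 or with the control, which were alike. Csa04g039100 had CPM values of 43, 39 and 38 in the *35S::acdS* libraries, 32, 27 and 42 in the *rolD::acdS* libraries, 23, 18 and 22 in the *P. migulae* 8R6 libraries, and 16, 12 and 25 in the control libraries. Csa09g061430 had CPM values of 42, 32 and 30 in the *35S::acdS* libraries, 27, 19 and 32 in the *rolD::acdS* libraries, 17, 13 and 14 in the *P. migulae* 8R6 libraries, and 16, 9 and 18 in the control libraries. In all 3 genes *rolD::acdS* replicate 3 was the highest *rolD::acdS* library and lay inside the *35S::acdS* range or above it.

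Summed over the 3 UGT73C7 genes, the level was 171.7 ± 10.6 CPM in *35S::acdS*, 140.3 ± 32.8 CPM in *rolD::acdS*, 83.7 ± 14.6 CPM in *P. migulae* 8R6 and 79.0 ± 23.1 CPM in the control. The corresponding sum of the UGT74E2 pair was 184.3 ± 8.15 CPM in *35S::acdS*, 103.7 ± 13.6 CPM in *rolD::acdS*, 99 ± 22.9 CPM in *P. migulae* 8R6 and 68.7 ± 33.5 CPM in the control. For *35S::acdS* minus control, the log2 fold change was 1.22 (SE 0.24) for Csa04g039100, 1.07 (SE 0.23) for Csa06g027600 and 1.29 (SE 0.26) for Csa09g061430. Without control replicate 2, again the lowest control library, it was 0.98, 0.86 and 0.99 for these genes.

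**Figure D1:**
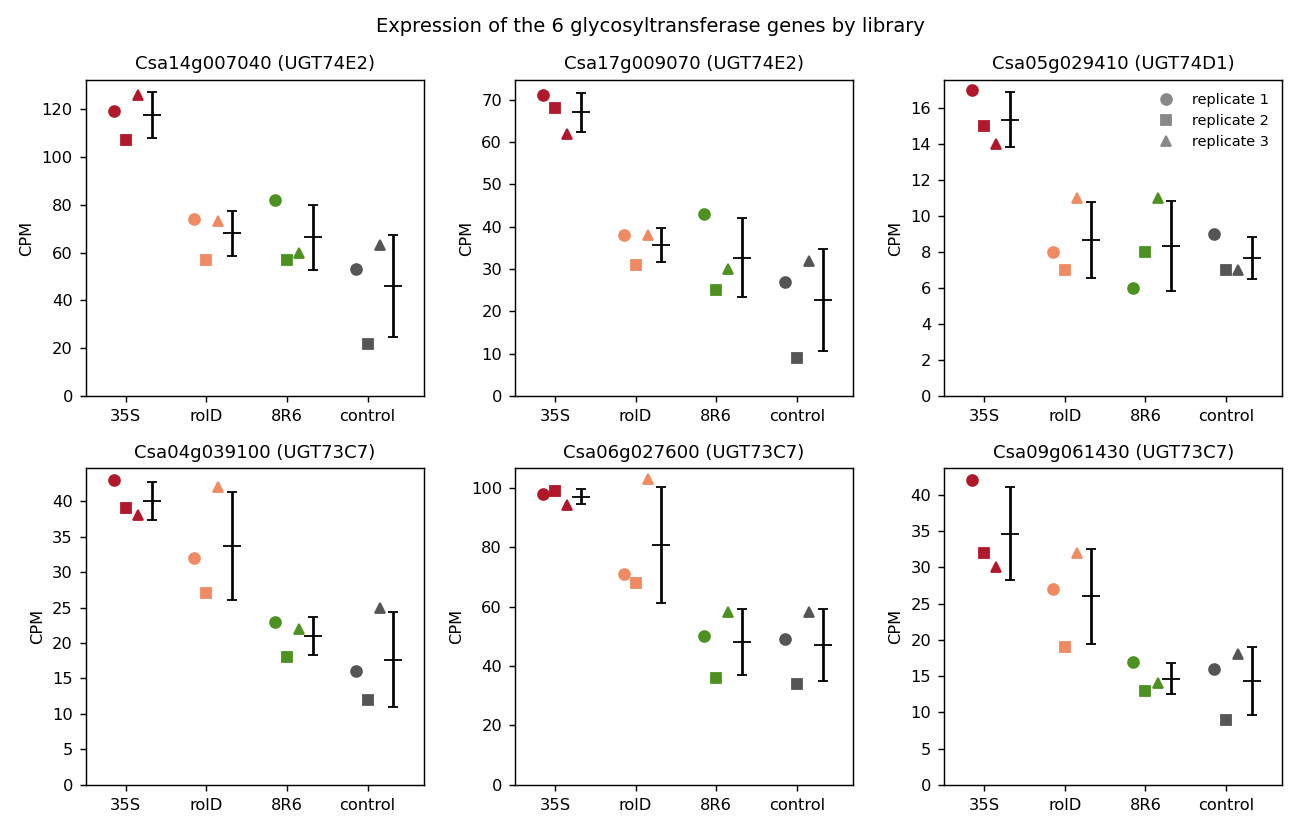
Expression in CPM (linear axis from 0) of the 6 glycosyltransferase genes, with a panel per gene and the groups *35S::acdS*, *rolD::acdS*, *P. migulae* 8R6 and control from left to right. Each symbol is 1 library, the shape gives the replicate number, and the black bar is the mean ± SD of 3 libraries. The *35S::acdS* libraries of the UGT74E2 genes and UGT74D1 lie above all others, whereas the *rolD::acdS* libraries of the UGT73C7 genes reach 42, 103 and 32 CPM, into the *35S::acdS* range.

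The comparison of *35S::acdS* with the control chose the genes. In it, all 6 had libraries that did not overlap, which the choice favoured, where 3.46% of all tested genes were higher in this way. Limma called 0% of all tested genes. The median log2 fold change of the 6 was 1.25, against 0.00 over all tested genes. Over all tested genes, 3427 had an unadjusted p under 0.05 in this comparison.

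Relative to the control, the UGT73C7 genes were the only ones of the 6 whose *rolD::acdS* libraries did not overlap with the control libraries. That is 3 of 6 genes, where 2.99% of all tested genes were higher in this way. Copies with the same ortholog can share reads, so in this and the other counts they are not separate results. Limma called 0 of the 6 and 0.00416% of all genes, and the 3 UGT73C7 genes were those with an unadjusted p under 0.05, which 3.11% of all tested genes had in the upward direction. For *rolD::acdS* minus control, limma gave a log2 fold change of 0.95 (95% interval 0.43 to 1.47) for Csa04g039100, 0.78 (0.28 to 1.28) for Csa06g027600 and 0.86 (0.29 to 1.44) for Csa09g061430, with an adjusted p of 0.694 for each from limma. Without control replicate 2 the values were 0.71, 0.57 and 0.57. For the UGT74E2 copies the same difference was 0.68 (-0.03 to 1.39, adjusted p = 0.727 from limma) and 0.82 (-0.02 to 1.66, adjusted p = 0.724). These UGT74E2 values depended on 1 library, at 0.22 and 0.27 without control replicate 2. UGT74D1 differed by 0.15 (-0.32 to 0.63, adjusted p = 0.888 from limma). This comparison shares its control libraries with the one that chose the genes.

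Inoculation with *P. migulae* 8R6 gave no separation from the control in any of the 6 genes (0 of 6 without overlap and higher, against 1.95% of all tested genes). Limma called 0 of the 6 and 0% of all genes, with 0 of the 6 and 2604 of all genes at an unadjusted p under 0.05. The log2 fold change of *P. migulae* 8R6 minus control was 0.64 (-0.07 to 1.34) and 0.66 (-0.18 to 1.51) for the UGT74E2 copies Csa14g007040 and Csa17g009070, and 0.18 and 0.11 without control replicate 2. For UGT74D1 it was 0.08 (-0.39 to 0.56), and for the UGT73C7 genes 0.30 (-0.22 to 0.82) for Csa04g039100, 0.04 (-0.47 to 0.54) for Csa06g027600 and 0.08 (-0.50 to 0.66) for Csa09g061430. Adjusted p from limma was 0.874 to 1 over the 6 genes. The intervals of UGT74D1 and of 2 UGT73C7 genes end below 0.8, and that of Csa04g039100 just above it.

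Between the 2 transgenic lines, the UGT74 genes were higher in *35S::acdS* without overlap, and the UGT73C7 genes overlapped through 1 library. In *35S::acdS* against *rolD::acdS* roots, the libraries of 3 of 6 genes did not overlap, namely both UGT74E2 genes and UGT74D1, against 3.58% of all tested genes that were higher in this way. Limma called 0 of the 6 and 0.00416% of all genes. The log2 fold change of *35S::acdS* minus *rolD::acdS* was 0.79 (0.08 to 1.5, adjusted p = 0.621 from limma) for Csa14g007040, 0.90 (0.06 to 1.74, adjusted p = 0.638) for Csa17g009070 and 0.81 (0.33 to 1.28, adjusted p = 0.491) for Csa05g029410. For the UGT73C7 genes it was 0.27 (-0.25 to 0.79), 0.29 (-0.21 to 0.79) and 0.42 (-0.15 to 1.00), with adjusted p of 0.739 to 0.836 from limma. Without *rolD::acdS* replicate 3 these 3 values were 0.44, 0.48 and 0.59, and all 6 genes were higher in *35S::acdS* without overlap. With a library left out such a separation is easier to reach, and the share of all tested genes was not computed for it. Both lines carry the transgene, and whether the 2 sets of genes differ in this contrast was not tested.

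Against *P. migulae* 8R6, the *35S::acdS* libraries were higher without overlap in all 6 genes, as were 4.71% of all tested genes. All 6 also had an unadjusted p under 0.05, as did 5.53% of all tested genes in the upward direction, but limma called 0 of the 6 and 0% of all genes. Log2 fold changes of *35S::acdS* minus *P. migulae* 8R6 were 0.83 (0.13 to 1.54) for Csa14g007040, 1.06 (0.22 to 1.90) for Csa17g009070 and 0.88 (0.40 to 1.35) for UGT74D1. The UGT73C7 genes Csa04g039100, Csa06g027600 and Csa09g061430 gave 0.92 (0.40 to 1.44), 1.03 (0.53 to 1.54) and 1.21 (0.63 to 1.78). The lowest adjusted p from limma was 0.179, for Csa09g061430, and the highest 0.348, for Csa14g007040. The *35S::acdS* libraries of this comparison and of the one above are those that chose the genes.

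The comparison of *rolD::acdS* with *P. migulae* 8R6 is the only one whose group means use none of the libraries on which the genes were chosen. Its intervals and p-values from limma still rest on a spread estimated over all 12 libraries, those included. In this comparison the UGT73C7 genes were again the 3 of 6 without overlap, against 5.1% of all tested genes that were higher in this way. They were also the 3 with an unadjusted p under 0.05, against 6.16% of all tested genes in the upward direction. As copies with the same ortholog, these 3 are not separate results. The log2 fold change of *rolD::acdS* minus *P. migulae* 8R6 was 0.65 (0.13 to 1.17, adjusted p = 0.286 from limma) for Csa04g039100, 0.74 (0.24 to 1.25, adjusted p = 0.228) for Csa06g027600 and 0.78 (0.21 to 1.36, adjusted p = 0.257) for Csa09g061430. None reached the limit of 0.8, and limma called 0 of the 6 and 0.00832% of all genes. For the UGT74E2 genes the difference was 0.04 (-0.66 to 0.75) and 0.15 (-0.69 to 1.00), and for UGT74D1 0.07 (-0.41 to 0.55). Its sign for these 3 genes turned when single libraries were left out.

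**Figure D2:**
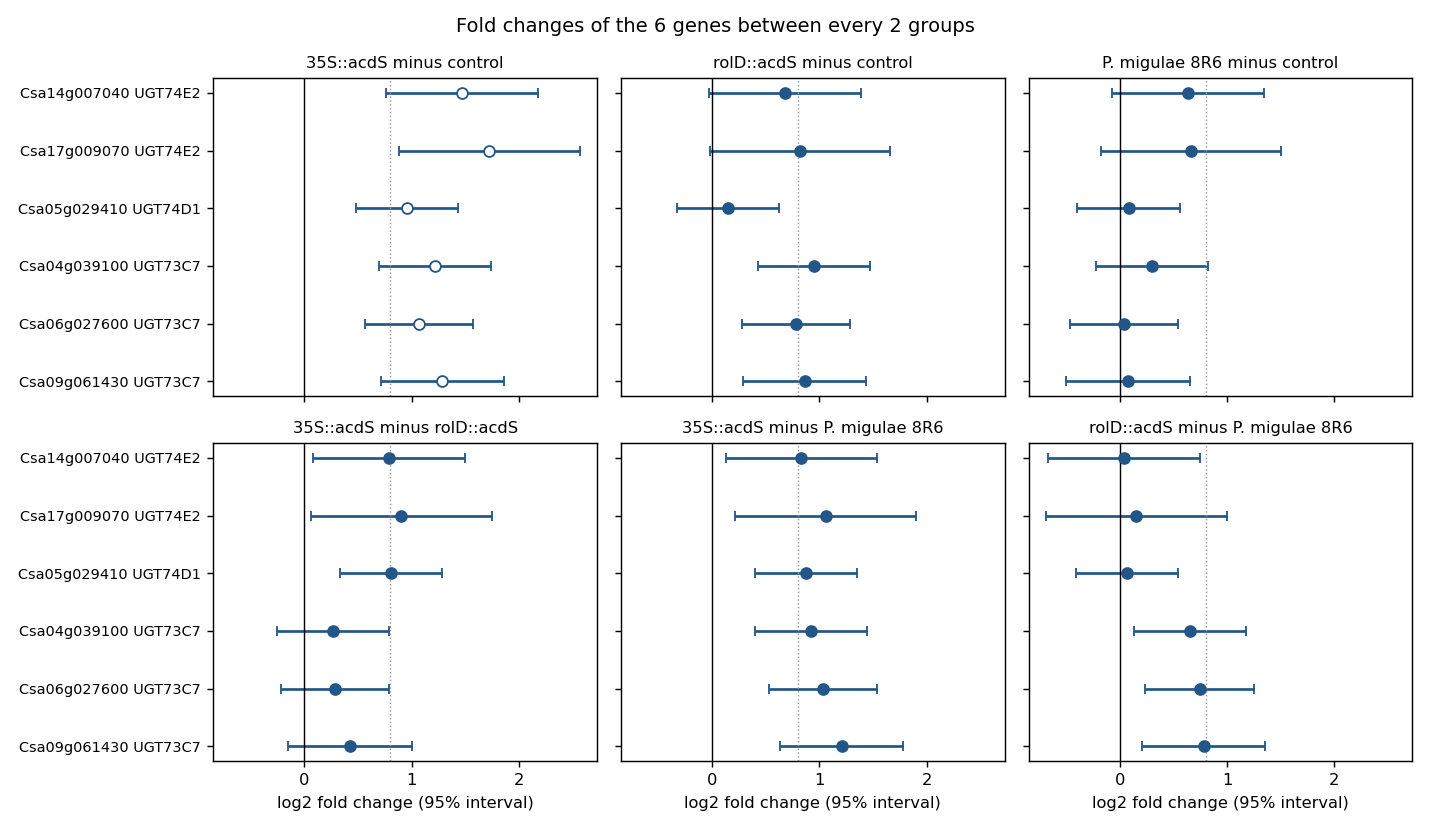
Log2 fold change of each gene (horizontal axis, with the 95% interval from limma) in the 6 comparisons, a panel each. Open circles mark the comparison that chose the genes, the solid line is at 0 and the dotted line at the limit of 0.8. In *rolD::acdS* minus control and *rolD::acdS* minus *P. migulae* 8R6, the intervals of the 3 UGT73C7 genes lie above 0 and those of the UGT74 genes include 0, and in *35S::acdS* minus *rolD::acdS* it is the other way round.

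Placed on the log2 distance between the control and *35S::acdS*, the *rolD::acdS* mean stood at 78.1%, 72.9% and 67.0% for the UGT73C7 genes Csa04g039100, Csa06g027600 and Csa09g061430. It stood at 46.3% and 47.6% for the UGT74E2 genes and at 15.8% for UGT74D1. The *P. migulae* 8R6 mean stood at 24.5%, 3.43% and 6.23% for the UGT73C7 genes, at 43.3% and 38.6% for the UGT74E2 genes and at 8.67% for UGT74D1. The UGT73C7 genes thus stood nearer to *35S::acdS* in *rolD::acdS* than in *P. migulae* 8R6, while for the UGT74E2 genes both were at similar places. Both ends of this scale are the groups that chose the genes, so the places are not independent of that choice. The places of the UGT74E2 genes depended on control replicate 2: without it they were 22.0% and 22.9% in *rolD::acdS* and 17.6% and 9.68% in *P. migulae* 8R6. Without this library, UGT74D1 was at 10.5% in *rolD::acdS* and 2.92% in *P. migulae* 8R6. The UGT73C7 genes were then at 72.8%, 66.2% and 57.3% in *rolD::acdS* and at 6.15%, -20.7% and -21.4% in *P. migulae* 8R6. The sum of the UGT73C7 genes divided by that of the UGT74E2 genes was 0.963, 0.971 and 0.862 in the *35S::acdS* libraries, 1.16, 1.30 and 1.59 in the *rolD::acdS* libraries, 0.720, 0.817 and 1.04 in the *P. migulae* 8R6 libraries, and 1.01, 1.77 and 1.06 in the control libraries. This ratio, chosen after the values were seen, was higher in all *rolD::acdS* libraries than in any *35S::acdS* or *P. migulae* 8R6 library, and its highest value was in control replicate 2.

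Camelina is a hexaploid, and copies of one ancestral gene on different chromosomes can share reads where their sequences are nearly identical. How reads that fit several copies were counted is not given in the sources used here, so values of single copies are uncertain where reads were split. Csa14g007040 took 63.6 ± 3.06% of the summed UGT74E2 CPM in *35S::acdS*, 65.5 ± 0.679% in *rolD::acdS*, 67.3 ± 2.02% in *P. migulae* 8R6 and 67.8 ± 2.71% in the control. Over the 12 libraries its share was between 61.1% and 71.0%, so it was the larger one in every library. Of the UGT73C7 sum, Csa06g027600 took 56.6% in *35S::acdS*, 57.5% in *rolD::acdS*, 57.0% in *P. migulae* 8R6 and 59.9% in the control. The share of Csa04g039100 was 23.3% in *35S::acdS*, 24.0% in *rolD::acdS*, 25.3% in *P. migulae* 8R6 and 22.1% in the control, and Csa09g061430 took the remainder. The shares moved by a few percentage points between groups, while the sums of both sets were more than 2 times as high in *35S::acdS* as in the control. That comparison chose the genes. Without control replicate 2, the log2 fold changes of Csa04g039100, Csa06g027600 and Csa09g061430 were 0.98, 0.86 and 0.99, each under 2 times.

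**Figure D3:**
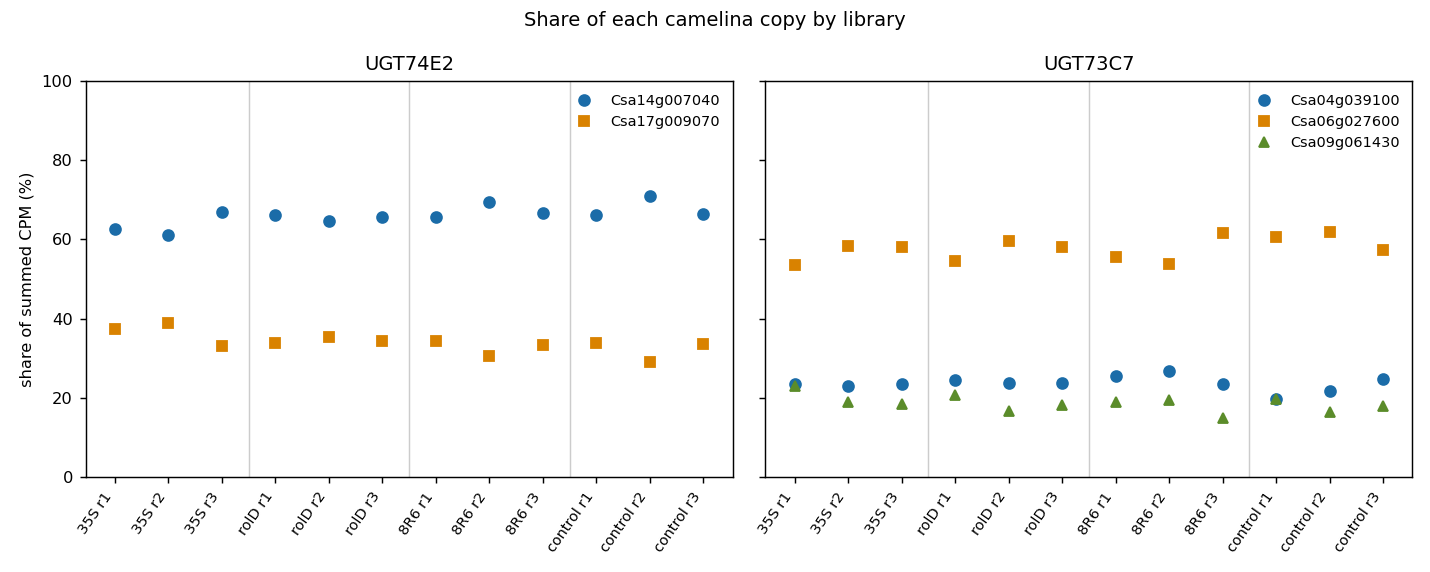
Share (%) of each copy in the summed CPM of the UGT74E2 pair (left) and of the 3 UGT73C7 genes (right) in each library, ordered *35S::acdS*, *rolD::acdS*, *P. migulae* 8R6 and control. Csa14g007040 stays between 61.1% and 71.0% and Csa06g027600 between 53.6% and 61.8%.

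Apart from UGT74D1, the genes also varied together with group means removed, where the control, the most spread group, weighed most. For Csa14g007040 the SD of log2(CPM + 0.5) was 0.802 in the control, 0.119 in *35S::acdS*, 0.21 in *rolD::acdS* and 0.282 in *P. migulae* 8R6. No r was computed without control replicate 2. Over the 12 libraries, Pearson's r of log2(CPM + 0.5) was 0.99 for the UGT74E2 pair and 0.944 to 0.959 within the UGT73C7 set. With group means removed it was 0.972 for the UGT74E2 pair and 0.759 to 0.879 within UGT73C7. Copies with the same ortholog can share reads, and the part of shared reads in these r was not tested. Between UGT74E2 and UGT73C7 genes the values were 0.792 to 0.882 over the libraries and 0.686 to 0.865 with group means removed. UGT74D1 stood apart, with r of 0.649 to 0.732 with the other 5 genes and only 0.021 to 0.479 with group means removed. It also had the lowest values of the 6, at 6 to 17 CPM in whole numbers, and the part of rounding in its lower r was not tested. For comparison, the median r of each gene with 47954 tested genes was between -0.029 and -0.004, and 95% of those genes were below 0.528 to 0.597. With group means removed, 95% were below 0.543 to 0.640. All points share the same 12 libraries, and all 6 genes were chosen for a high level in 3 of them, so these r are descriptions.

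In 3 of the groups, a single library stood low for most of the genes. Control replicate 2 was the lowest or tied lowest control library for all 6 genes, *rolD::acdS* replicate 2 the lowest of its group for all 6, and *P. migulae* 8R6 replicate 2 the lowest of its group for 5. The SD within a group on the log2 scale had a median over the 6 genes of 0.109 in *35S::acdS*, 0.317 in *rolD::acdS*, 0.315 in *P. migulae* 8R6 and 0.516 in the control. Over 32862 genes with a mean of at least 5 CPM the corresponding medians were 0.159 in *35S::acdS*, 0.159 in *rolD::acdS*, 0.194 in *P. migulae* 8R6 and 0.153 in the control. The median of the 6 was thus below that of all these genes in *35S::acdS* and above it in the other groups, while single genes crossed it, such as Csa09g061430 with an SD of 0.254 in *35S::acdS*.

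**Figure D4:**
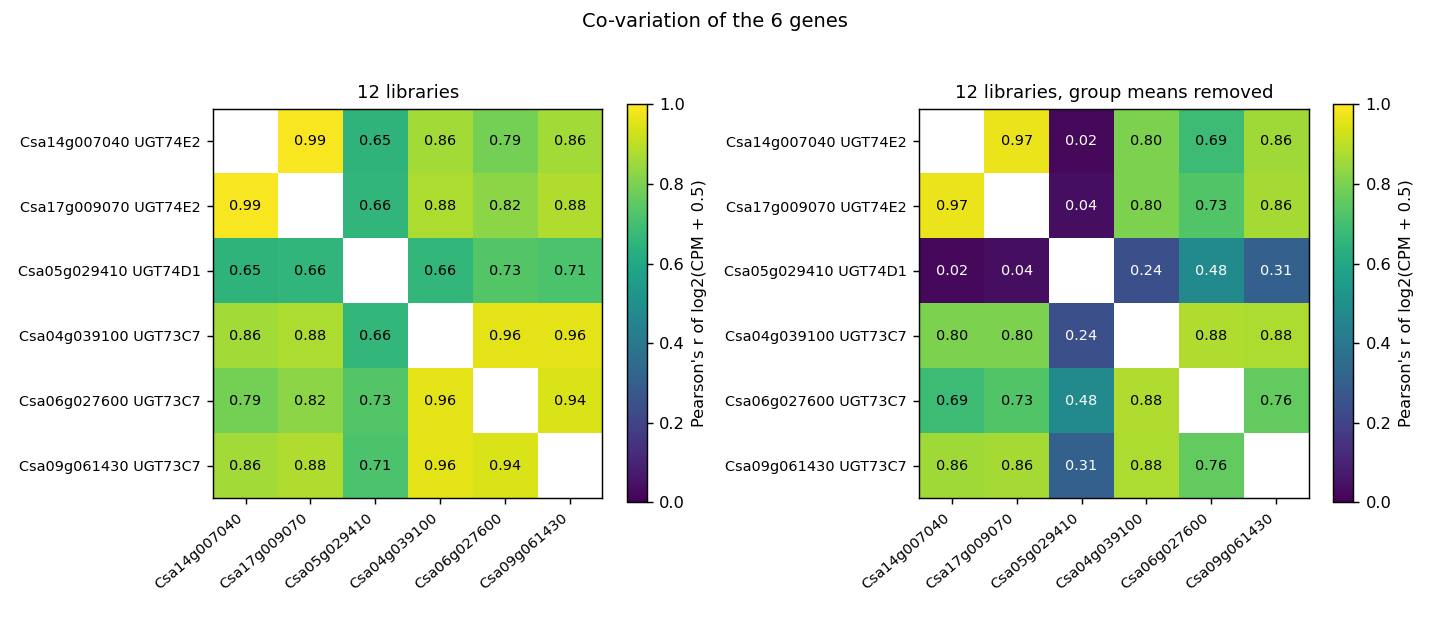
Pearson's r of log2(CPM + 0.5) between each pair of the 6 genes over 12 libraries (left) and after the group means were removed (right), with colour from 0 to 1. The UGT74E2 pair and the UGT73C7 set keep high values in both panels, and UGT74D1 falls to between 0.02 and 0.48 in the right one.

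The genes most like the UGT74E2 copies, other than each other, included annotated genes of transport and transcription. For Csa14g007040 these were Csa19g018380 (r = 0.971), annotated as multidrug resistance-associated protein 3, an ABC transporter, and Csa05g026980 (r = 0.961), which has no annotation in the sources used here. Csa19g018380 averaged 108.7 ± 8.96 CPM in *35S::acdS*, 82.3 ± 11.9 CPM in *rolD::acdS*, 67.7 ± 15.0 CPM in *P. migulae* 8R6 and 56.3 ± 20.8 CPM in the control. Its control libraries had 63, 33 and 73 CPM, so that control replicate 2 was again the lowest. For Csa17g009070 they were Csa19g001330 (r = 0.979), annotated as NAC domain containing protein 44, a transcription factor, and Csa03g007080 (r = 0.969), likewise without annotation. Csa19g001330 was low throughout, at 9.67 ± 1.53 CPM in *35S::acdS*, 5.33 ± 0.577 CPM in *rolD::acdS*, 5.33 ± 1.53 CPM in *P. migulae* 8R6 and 4 ± 1.73 CPM in the control. Csa03g007080 had CPM values of 121, 110 and 92 in the *35S::acdS* libraries, 83, 72 and 72 in the *rolD::acdS* libraries, 90, 55 and 56 in the *P. migulae* 8R6 libraries, and 65, 26 and 79 in the control libraries. Like the UGT74E2 genes, it had its 3 highest values in *35S::acdS* and its lowest in control replicate 2. The genes of this paragraph were picked for a high r with a UGT74E2 copy, so shared high and low libraries follow from that pick.

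For the UGT73C7 genes the most alike were mostly the other copies of the set (r = 0.944 to 0.959), which can share reads with them. Csa04g039100 was also like Csa05g089660 (r = 0.933), annotated as multidrug resistance-associated protein 14, which averaged 17.7 ± 1.53 CPM in *35S::acdS*, 13 ± 2.00 CPM in *rolD::acdS*, 10.3 ± 1.53 CPM in *P. migulae* 8R6 and 9.33 ± 3.21 CPM in the control. The other gene most like Csa06g027600 was Csa04g067890 (r = 0.946), and that most like Csa09g061430 was its neighbour Csa09g061450 (r = 0.938). UGT74D1 had no such partner with a large change. Its 3 most alike genes, Csa19g049350, Csa06g026370 and Csa19g018790 (r = 0.915 to 0.933), had log2 fold changes of *35S::acdS* minus control of 0.42, 0.29 and 0.17.

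In the order of gene identifiers, 2 of the 3 UGT73C7 genes were followed by a gene that was also highest in *35S::acdS* roots. Csa04g039120, next after Csa04g039100, and Csa09g061450, next after Csa09g061430, are both annotated as glutamate-ammonia ligases, and both are on the list of the study. Csa09g061450 had CPM values of 23, 22 and 18 in the *35S::acdS* libraries, 14, 9 and 13 in the *rolD::acdS* libraries, 11, 5 and 5 in the *P. migulae* 8R6 libraries, and 7, 5 and 9 in the control libraries. Csa04g039120 had CPM values of 33, 26 and 31 in the *35S::acdS* libraries, 27, 20 and 24 in the *rolD::acdS* libraries, 19, 10 and 11 in the *P. migulae* 8R6 libraries, and 14, 11 and 17 in the control libraries. As in the UGT73C7 genes, the *35S::acdS* mean was highest and *P. migulae* 8R6 overlapped with the control. In *rolD::acdS* the neighbours differed from each other: Csa04g039120 was above *P. migulae* 8R6 and the control without overlap, like the UGT73C7 genes, whereas Csa09g061450 overlapped with both and was below *35S::acdS* without overlap. Each followed its UGT73C7 neighbour over the 12 libraries, with r of 0.889 for the pair on chromosome 4 and 0.938 for that on chromosome 9. With group means removed r was 0.645 and 0.776, where 95% of tested genes were below 0.543 for Csa04g039100 and 0.592 for Csa09g061430. The study listed both genes of each pair on these libraries, so these r are descriptions. The ligase genes share an annotation and lie beside copies with the same ortholog, so they are not taken as separate results. Csa06g027600 had no such neighbour among the 5 genes on either side.

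Csa05g029370, annotated as UGT74C1, lies 2 places before the UGT74D1 gene. It had CPM values of 21, 21 and 51 in the *35S::acdS* libraries, 14, 22 and 41 in the *rolD::acdS* libraries, 7, 31 and 50 in the *P. migulae* 8R6 libraries, and 6, 12 and 16 in the control libraries. All *35S::acdS* libraries were above the control, but replicate 3 was highest in every group and the 3 treated groups overlapped widely, unlike UGT74D1. The log2 fold change against the control was 1.11 (-0.39 to 2.62) in *rolD::acdS* and 1.05 (-0.45 to 2.55) in *P. migulae* 8R6, with adjusted p of 0.754 and 0.876 from limma. Among 59 tested genes within 5 places of the 6, the median log2 fold change of *35S::acdS* minus control was 0.04. Of them, 4 were above 0.8, as were 1.43% of all tested genes, and 2 were below -0.8.

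**Figure D5:**
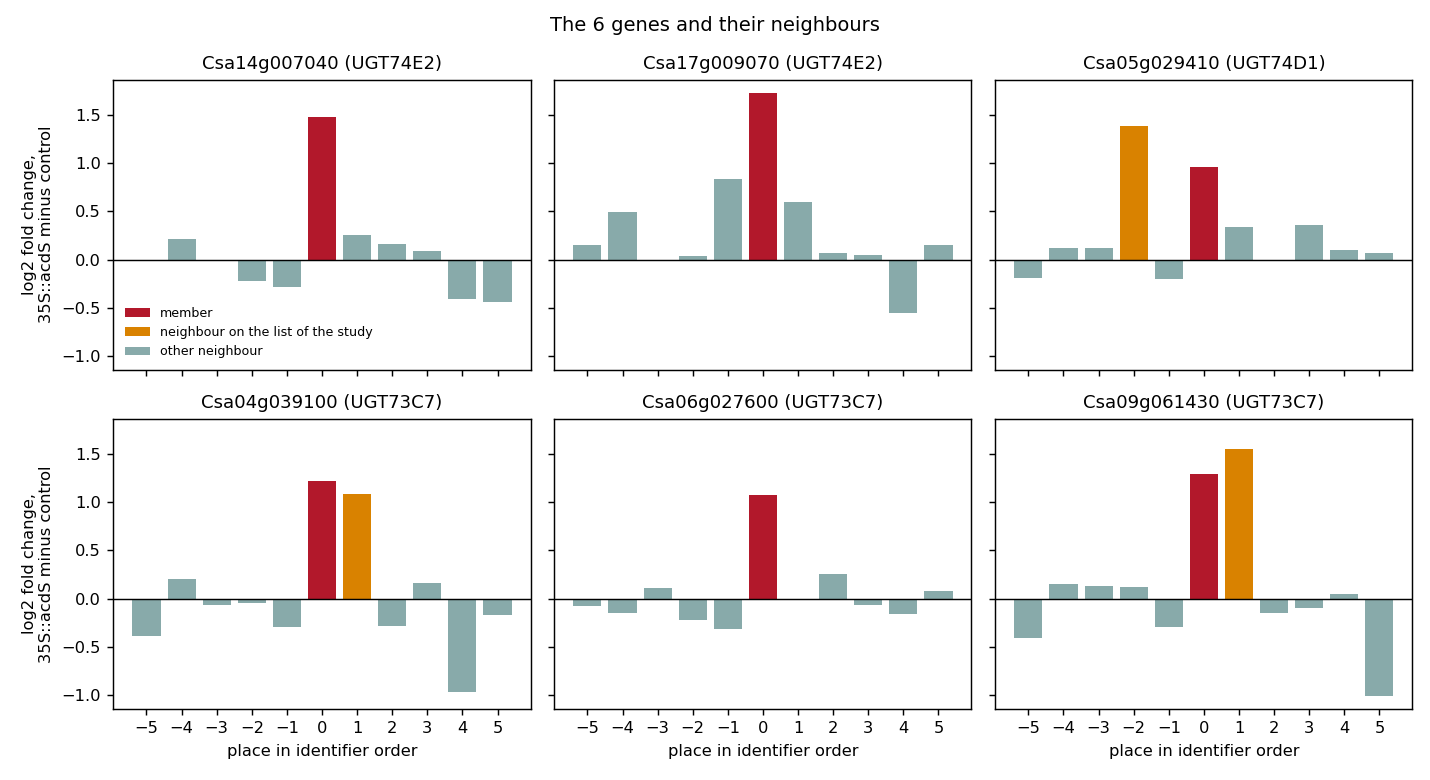
Log2 fold change of *35S::acdS* minus control (vertical axis) for each of the 6 genes (place 0) and the 5 genes before and after it in identifier order, which is not a distance in bases. Red bars are the 6 genes, orange bars are neighbours that the study also lists, and a missing bar is a gene at about 0 or not tested. The orange bars are UGT74C1, at 1.38, and the glutamate-ammonia ligase genes after 2 UGT73C7 genes, at 1.09 and 1.55.

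Of 7 other auxin genes taken from the list of the study, 6 were tested and 0 were called in any comparison by limma. The list was chosen by the study on these libraries, so its counts are not independent evidence. Against the control, an unadjusted p under 0.05 was met by 5 of the 6 in *35S::acdS* (4 higher and 1 lower), where 3427 of 48099 tested genes met it. In *rolD::acdS* 2 of the 6 met it, both higher, where 3299 of all tested genes did, and in *P. migulae* 8R6 also 2, both higher, where 2604 did. The 5 listed GH3 genes, of a family known for joining auxin and other hormones to amino acids, were near 0: Csa17g080380 had CPM values of 8, 5 and 2 in the *35S::acdS* libraries, 3, 1 and 4 in the *rolD::acdS* libraries, 1, 0 and 0 in the *P. migulae* 8R6 libraries, and 1, 1 and 0 in the control libraries. The others did not exceed 6 CPM in any library. Csa13g050980, annotated as auxin-induced in root cultures 1, had its lowest mean where the glycosyltransferases had their highest, with CPM values of 6, 12 and 22 in the *35S::acdS* libraries, 19, 31 and 22 in the *rolD::acdS* libraries, 55, 29 and 52 in the *P. migulae* 8R6 libraries, and 20, 61 and 106 in the control libraries. Its *35S::acdS* and control libraries overlapped, with a log2 fold change of *35S::acdS* minus control of -2.07, and control replicate 2 was not the lowest here.

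Csa20g007990, annotated as the alpha subunit 1 of anthranilate synthase, an enzyme of tryptophan synthesis upstream of auxin, was highest in *P. migulae* 8R6 roots, at 13.3 ± 1.53 CPM, against 6.67 ± 1.15 CPM in the control (log2 fold change 0.95, adjusted p = 0.874 from limma). Its mean in *35S::acdS* was 10.7 ± 3.51 CPM, and in *rolD::acdS* it was 9.67 ± 1.15 CPM. The other listed glycosyltransferase, Csa05g033680, annotated as UGT87A2-like, was highest in *rolD::acdS* roots, with CPM values of 4, 8 and 14, against 6, 4 and 4 in the *35S::acdS* libraries, 3, 2 and 3 in the *P. migulae* 8R6 libraries and 4, 1 and 3 in the control. Its *rolD::acdS* libraries overlapped with the control at 4 CPM. In *rolD::acdS* against the control, its log2 fold change was 1.52 (0.51 to 2.52, adjusted p = 0.694 from limma).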

How the data were processed

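After trimming (Trimmomatic), the authors mapped reads with STAR against release 100 of the camelina genome plus NCBI transcripts and scaled gene counts by library size to CPM, with DESeq and edgeR for further normalization and tests. Tool versions are not given in the sources used here. The deposited score values are read as CPM made by the authors and rounded, since all are whole numbers, and 0 value columns were left unmapped. As they are not read counts, the count test of the study was not run.

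From these values, log2(CPM + 0.5) went into a limma 3.58.1 model (R 4.3.3, lmFit and eBayes with trend) over 48099 of 49932 genes and all 12 libraries, with 8 residual and 2.59 prior degrees of freedom. The code of the fit was tested on simulated data. These had less spread than the real values and larger changes than the glycosyltransferase genes, so that test does not bear on changes of their size. Within each of 6 comparisons, p-values were adjusted over all tested genes (Benjamini-Hochberg). Descriptions used Python 3.11.15 (numpy 2.4.6, pandas 2.3.3), and plots matplotlib 3.10.9. Depth is unknown, so no counting interval could be given, and precision rests on 3 libraries a group.

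The genes named were the 6 glycosyltransferase genes, 9 listed glycosyltransferase and auxin genes, annotated genes within 5 places, and per gene the 3 most alike with a mean of at least 5 CPM. The genes and lists were chosen with earlier results of these data known. Annotations and orthologs are those of the study, since 0 identifiers matched the RefSeq table, and no sequence is shown. Alternatives tried were no trend, a robust fit, a replicate block, only the groups compared, each library left out in turn, median-of-ratios and quantile scaling, pseudocounts of 0.1 and 1, no low-value filter, a mean of at least 5 CPM, and calls without the 0.8 limit. A sheet of column names was not used here.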

Additional observations from a re-analysis of the deposited data

How the results depend on the processing

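Outside *35S::acdS* minus control, which chose the genes and was not tested for them, limma called none of the 6 under any alternative run (lowest adjusted p 0.105). Of 36 gene comparisons, 29 kept their direction under every alternative, and 7 turned when 1 library was left out, the cause not being tested. Without 1 library each, *rolD::acdS* minus *P. migulae* 8R6 was -0.0545 to 0.206 for Csa14g007040, -0.0166 to 0.369 for Csa17g009070 and -0.13 to 0.28 for Csa05g029410. The last gene was -0.0234 to 0.285 in *rolD::acdS* minus control and -0.13 to 0.28 in *P. migulae* 8R6 minus control, where Csa06g027600 was -0.18 to 0.23 and Csa09g061430 -0.21 to 0.27. Without control replicate 2, left out after seeing the data, the counts of the 6 genes above the control without overlap were 6 for *35S::acdS*, 3 for *rolD::acdS* and 0 for *P. migulae* 8R6, as before. Without *rolD::acdS* replicate 3, also chosen after seeing the data, 6 in place of 3 were higher in *35S::acdS* than in *rolD::acdS* without overlap. Separation is easier to reach with a library left out. The shares of all tested genes were not computed for these counts, so they are not read as results. For *35S::acdS* minus control, 0 were called, against 37 with only the groups compared, 6 without trend and 0 to 6 without 1 library. For *rolD::acdS* minus control the count was 2, against 0 with a pseudocount of 1, the mean filter, median-of-ratios, robust fit or replicate block, 21 with only the groups compared, 4 without trend and 0 to 7 without 1 library. For *P. migulae* 8R6 minus control it was 0, against 1 with a pseudocount of 0.1, 24 with only the groups compared, 2 without trend and 0 to 4 without 1 library. For *35S::acdS* minus *rolD::acdS* it was 2, against 0 with a pseudocount of 1, the mean filter, median-of-ratios, robust fit or replicate block, 39 with only the groups compared, 8 without trend and 0 to 10 without 1 library. For *35S::acdS* minus *P. migulae* 8R6 it was 0, against 3 with a pseudocount of 0.1, 2 with the mean filter or robust fit, 74 with only the groups compared, 9 without trend and 0 to 22 without 1 library. For *rolD::acdS* minus *P. migulae* 8R6 it was 4, against 15 with a pseudocount of 0.1, 0 with 1, 10 without filter, 24 with the mean filter, 11 with median-of-ratios, 15 with quantile scaling, 44 with only the groups compared, 9 without trend, 27 with robust fit, 1 with the replicate block and 0 to 51 without 1 library. The labels do not say that a replicate number marks a shared batch. The r of deviations from group means was -0.144 to 0.399 between same-numbered libraries (median 0.11, 18 pairs) and -0.356 to 0.237 between others (median -0.0391, 36 pairs), and 8 of 12 libraries were most like their own number, a hint of pairing from the data and not from the design. The values are rounded to 1 CPM, which limits genes at a few CPM.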
